A study of Sus scrofa with 8 samples.

Results

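miR-132 and miR-212, a pair of microRNAs (miRNAs) known to be induced by luteinizing hormone (LH) in mouse granulosa cells, were followed in luteal tissue of the pig. The corpus luteum forms from the ovulated follicle and secretes progesterone. Targets were matched by name, and the pair was picked with earlier results of these data known. Of the 686 miRNA targets on the array, 2 bore either miRNA number, whatever the arm or species. These were ssc-miR-132 and ssc-miR-212, each with 2 probes of 10 spots, and neither name gives an arm. The groups were non-inseminated (cyclic) gilts on day 14 of the estrous cycle and pregnant gilts on day 14 of pregnancy, which had been inseminated 12 and 24 hours after their second estrus was detected, with 4 individually hybridised tissue samples each. All were crossbred, 6 to 8 months old and of the same commercial herd, and the labels give no drug or genotype. No sample was treated with LH, so inducibility is background here and not a measurement. The samples were pieces of whole luteal tissue, in which a lower level can come from fewer cells of a type or from less RNA per cell, and these cannot be told apart.

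Both miRNAs come from the same locus. In the RefSeq annotation of Sscrofa11.1, MIR132 and MIR212 are direct neighbours on chromosome 12, between OVCA2 and HIC1, and no other annotated miRNA gene lies close by. In rodents and humans they are cut from a shared primary transcript, whose gene is switched on by the transcription factor CREB after cAMP signalling, the route that LH uses in ovarian cells. The main strands share a seed, the part of an miRNA that pairs with its messenger RNA targets. In mouse granulosa cells they restrain the corepressor CTBP1, and in human endothelial cells miR-132 restrains RASA1, an inhibitor of Ras.

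The 75th percentile intensity ran from 189 to 316 over the 8 arrays. Between 22.8% and 28.8% of spots were well above background and 0 spots were saturated. Of the targets, 474 were detected on fewer than 4 arrays and were not tested. Shares of tested targets below refer to the rest. Slide 1 carried pregnant replicates 1 and 2 and was scanned on a day of its own. Slide 2 carried cyclic replicates 1 and 2, and slide 3 the last 2 replicates of either group. Of the ovarian and luteal list, 11 of 18 targets were tested, among them the gonad-enriched ssc-miR-202-3p, which was detected on all 8 arrays. Of 8 muscle and liver targets, 0 were detected on any array. In part of the targets cyclic replicate 1 lay on the pregnant side of its group. In 33 tested targets (15.6%) the other 3 cyclic arrays all lay above cyclic replicate 1 and the 4 pregnant arrays, and in 40 (18.9%) they all lay below them. Both counts take in targets in which all 4 cyclic arrays lay apart from the pregnant arrays. ssc-miR-503, counted in the 40, read −2.15, −2.47, −3.25 and −3.62 on cyclic replicates 1 to 4 and −1.91 to −1.07 in pregnancy. The counts describe a pattern seen in the data and were given no test. Results are therefore given with and without that array. It was singled out on these same values, ssc-miR-132 among them, so fits without it describe the other 7 arrays and are no independent support.

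ssc-miR-132 was well above background on all 8 arrays. Its brighter probe read 114, 592, 344 and 615 intensity units on cyclic replicates 1 to 4. On pregnant replicates 1 to 4 the same probe read 151, 123, 131 and 123. The 3 high arrays were all cyclic, and cyclic replicate 1 was dimmer than every pregnant array. The SD between the spots of this probe on an array was 1.74% to 5.02% of their mean. This is technical error within an array and not the spread between animals.

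The same 3 arrays were high after each array was scaled to the 75th percentile of its targets detected on all arrays and log2 was taken. Cyclic replicates 1 to 4 stood at −1.004, 0.99, 0.83 and 0.96, and pregnant replicates 1 to 4 at −0.87, −0.94, −1.20 and −0.62. Cyclic replicate 1 thus fell between pregnant replicates 2 and 3, and the groups overlapped. The groups lay apart in 35 tested targets (16.5%), and ssc-miR-132 was not among these.

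**Figure D1:**
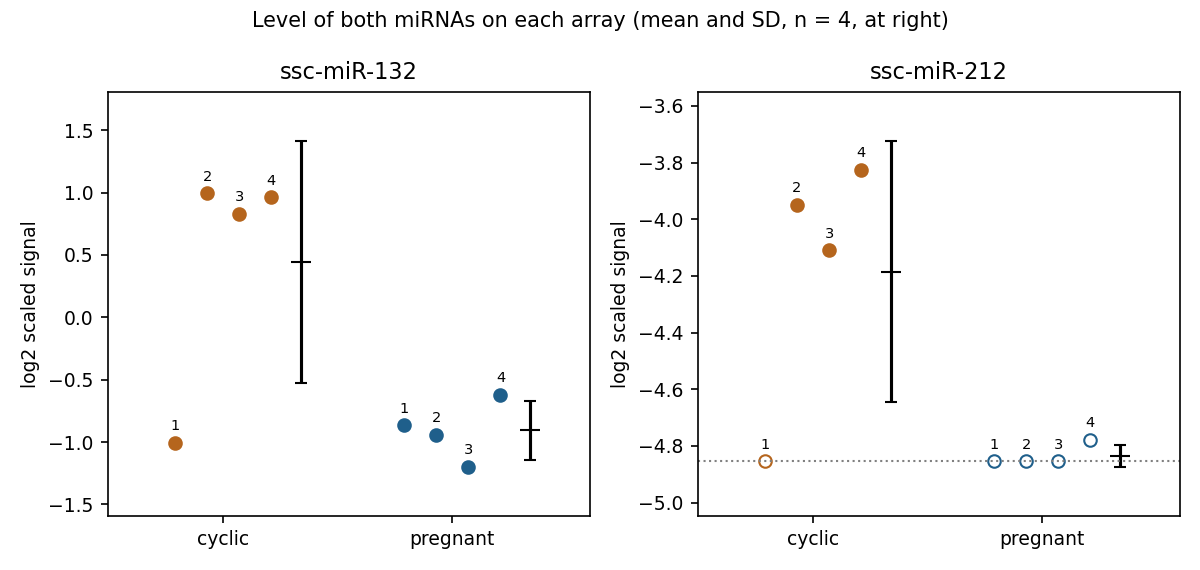
Log2 scaled signal of ssc-miR-132 (left) and ssc-miR-212 (right) on each array. Numbers are replicates, open circles mark arrays on which the probe was not well above background, the dotted line is the floor of the signal, and the black marks give mean and SD (n = 4). Cyclic replicates 2 to 4 lie high for both miRNAs, and cyclic replicate 1 lies with the pregnant arrays.

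The cyclic mean was 0.45 ± 0.97 and the pregnant mean −0.91 ± 0.24 (log2 level, SD, n = 4 each). The pregnant glands therefore averaged 2.55-fold lower, a log2 difference of −1.35 ± 0.38 (SE). With limma the difference passed once p was adjusted by Benjamini-Hochberg over every tested target (adjusted p = 0.0443). In all 24 targets passed (11.3% of those tested), 13 of them lower (6.13%) and 11 higher in pregnancy (5.19%). The exact 2-sided permutation test on ssc-miR-132 alone gave p = 0.114, where 4 against 4 arrays allow 0.0286 at the smallest. Without cyclic replicate 1 the difference was −1.83 ± 0.14, 3.57-fold lower, and no p is given because the array left out was the only cyclic one that overlapped the pregnant group. In that fit 81 targets passed (38.2%), 40 of them lower (18.9%) and 41 higher (19.3%).

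Leaving out any of the other 7 arrays ended the call, with adjusted p from 0.0773 to 0.133 and differences from −1.45 to −1.17. The sign was negative in all 32 alternative settings, and the call held in 11 of them, as the plot of ssc-miR-132 under each setting shows.

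**Figure D2:**
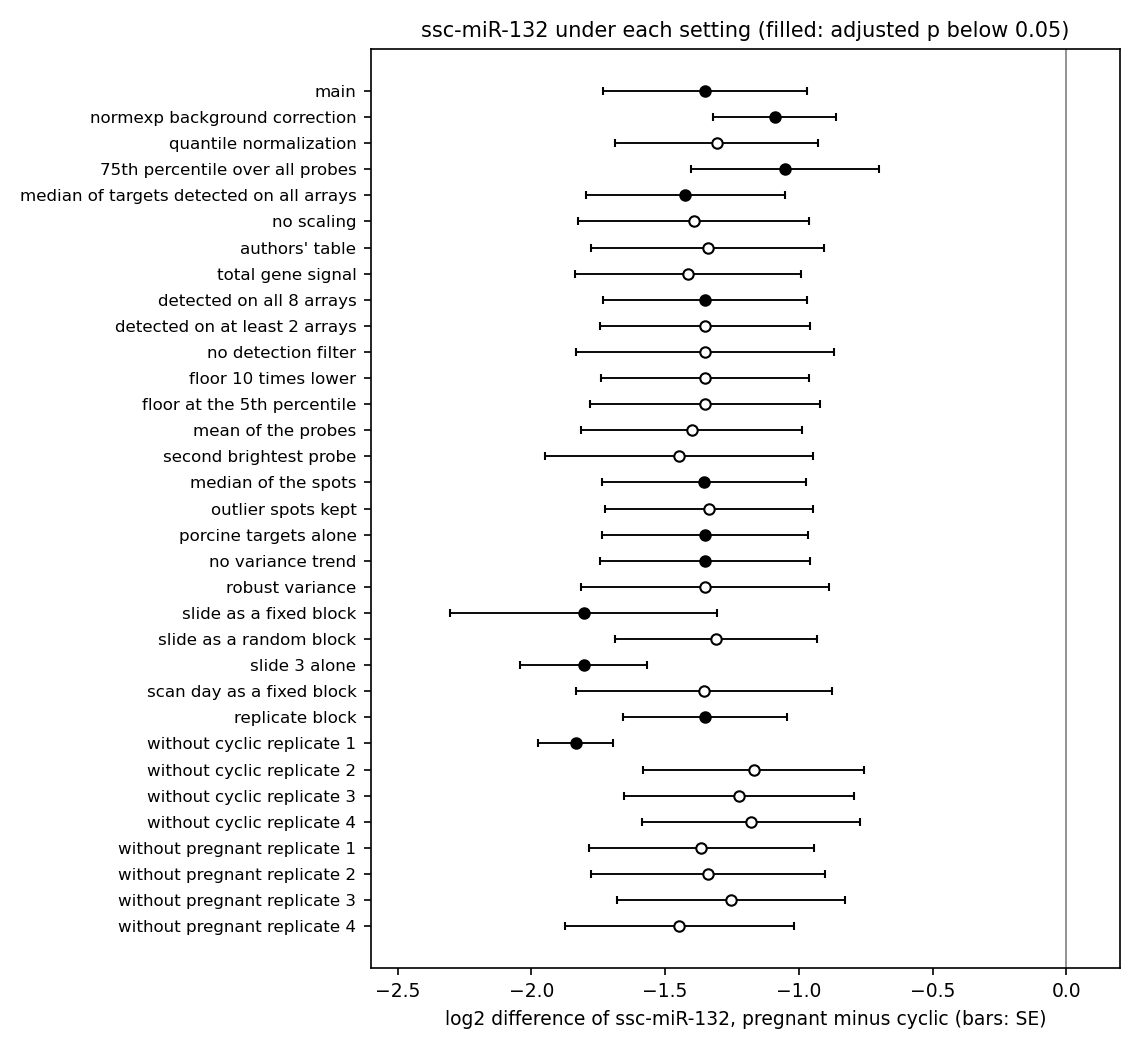
Log2 difference of ssc-miR-132, pregnant minus cyclic, with its SE, in the fit as reported (top) and under each alternative setting. Filled circles have an adjusted p below 0.05. All values are negative, from −1.83 without cyclic replicate 1 to −1.05 with scaling over all probes.

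High and low arrays occurred together on slides 2 and 3. On slide 3, which held both groups, the log2 difference, pregnant minus cyclic, was −1.81 (adjusted p = 0.0292, where 9 tested targets passed, 4.25%), and this fit leaves out cyclic replicate 1. With all 8 arrays the call was lost with slide as a random block (−1.31, adjusted p = 0.0511, 9.91% of tested targets passed) or scan day as a block (−1.35, adjusted p = 0.128, 0.943% passed). On slide 2 cyclic replicate 1 differed from cyclic replicate 2 by −2.00 (log2). The 2 pregnant arrays of slide 3 and the 2 of slide 1 differed by −0.0063 on average. The 75th percentile intensity of cyclic replicate 1 (229) lay inside the range of the other arrays, 189 to 316.

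The spread of ssc-miR-132 lay in the cyclic group. Its SD over the 4 cyclic arrays was 0.97 against a median of 0.29 over the tested targets, and 4 targets had a larger one. Over the pregnant arrays its SD was 0.24 against a median of 0.17, and 148 targets had a smaller one. Without cyclic replicate 1 the cyclic SD was 0.087.

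The other probe of ssc-miR-132 was dimmer and ran in parallel. It read 63.7, 369, 211 and 369 intensity units on cyclic replicates 1 to 4 and between 68.4 and 86.6 on the pregnant arrays. Fitted on its own among 391 probes, it differed by −1.45 ± 0.41 (adjusted p = 0.0423), and the brighter probe by −1.35 ± 0.38 with the same adjusted p. Of these probes 49 passed (12.5%). Both probes were high on the same 3 arrays.

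**Figure D3:**
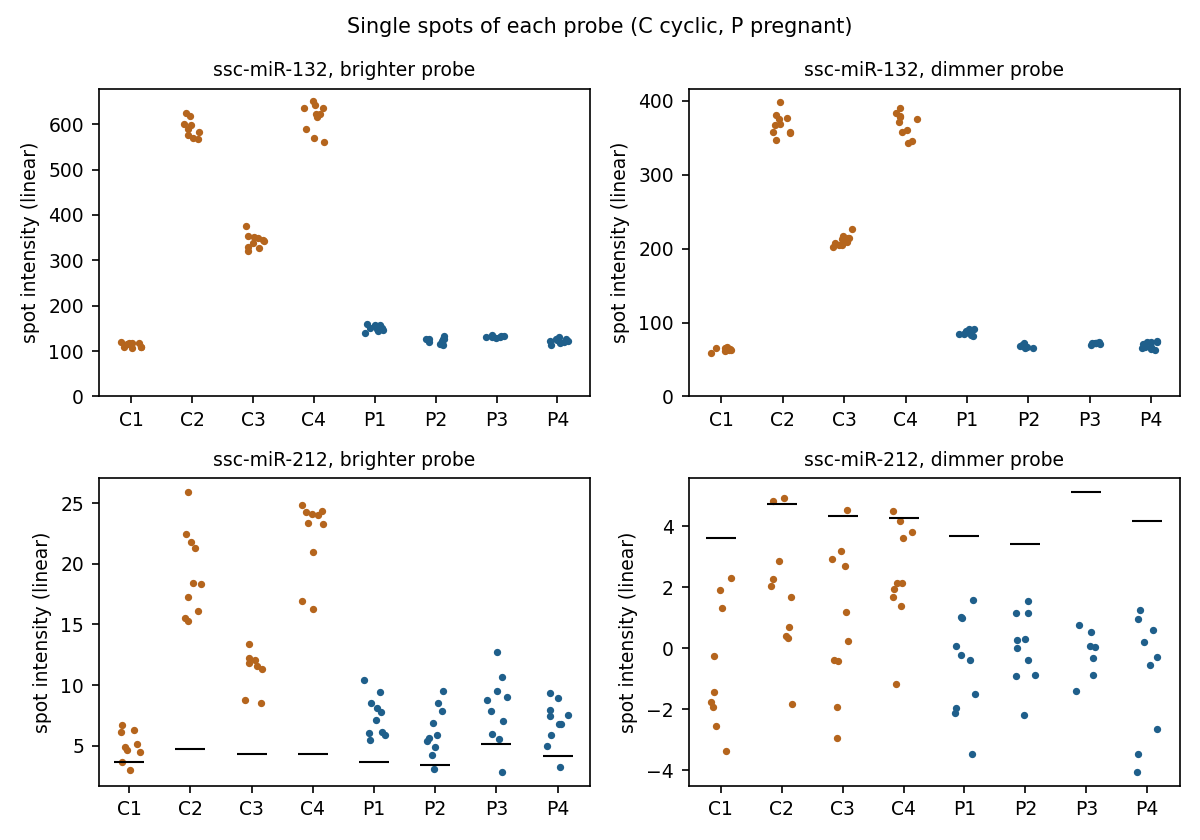
Intensity of single spots (linear scale) of the 2 probes of ssc-miR-132 (top) and of ssc-miR-212 (bottom) on each array, C for cyclic and P for pregnant. Horizontal marks in the lower panels show the 95th percentile of the negative control spots of that array. The spots of cyclic replicates 2 to 4 are high for both probes of ssc-miR-132 and for the brighter probe of ssc-miR-212, and the dimmer probe of ssc-miR-212 stays at the level of the negative controls on all 8 arrays.

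ssc-miR-212 was near the limit of detection. Its brighter probe read 4.99, 19.2, 11.2 and 22.3 intensity units on cyclic replicates 1 to 4, and 7.49, 6.17, 7.99 and 6.88 on pregnant replicates 1 to 4. The 95th percentile of the negative control spots was 3.41 to 5.11 units. At least 8 of 10 spots were well above background on cyclic replicates 2, 3 and 4, against 0 to 3 on each of the other 5 arrays. It was therefore detected on 3 arrays, all cyclic, and missed the 4 arrays needed for the test over all targets. The other probe of ssc-miR-212 had 0 spots well above background on any array.

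On its brighter probe the high and low arrays of ssc-miR-212 were those of ssc-miR-132. Whether this probe also picks up the brighter ssc-miR-132 was not tested. On the log2 scale, with a floor 10 times lower that left every value free, cyclic replicates 1 to 4 stood at −5.52, −3.95, −4.11 and −3.83 and pregnant replicates 1 to 4 at −5.20, −5.26, −5.24 and −4.78. Cyclic replicate 1 was the lowest of the 8 arrays, so the groups overlapped here too. The means were −4.35 ± 0.79 and −5.12 ± 0.23 (SD, n = 4), a difference of −0.77, and the exact 2-sided permutation test gave p = 0.143. With the floor as set for all targets (log2 −4.85) the difference was −0.65, and with normexp background correction it was −0.12. Since 0 of the 4 pregnant arrays detected the probe, its level there is a bound. The cyclic mean was 1.33-fold higher than the pregnant bound. This is no minimum, since cyclic replicate 1 did not detect the probe and entered at its measured signal. The mean of the 3 detecting cyclic arrays alone was 1.74-fold higher than that bound. Both values hold for the main background subtraction only. When targets detected on at least 2 arrays were tested, ssc-miR-212 did not pass (−0.65 ± 0.21, adjusted p = 0.0768, where 22 of 230 targets passed, 9.57%).

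Over the 8 arrays the levels of both miRNAs had a Pearson correlation of 0.974, and without cyclic replicate 1 it was 0.985. This describes 8 arrays that fall into a high and a low set and share their scaling, and it carries no test. For ssc-miR-212 it rests on the brighter probe alone, whose specificity was not tested. Among the other 211 tested targets the correlation with ssc-miR-132 had a median of 0.11 and a highest value of 0.956, 7 exceeded 0.9 and 10 lay below −0.9.

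The 5 tested targets closest to ssc-miR-132 by this measure were mmu-miR-21a-3p (0.956), ssc-miR-29a (0.943), ssc-miR-155-5p (0.939), ssc-miR-140-5p (0.938) and hsa-miR-223-3p (0.931). mmu-miR-21a-3p, the passenger strand of miR-21, read −2.36, −0.41, −0.25 and −0.16 on cyclic replicates 1 to 4 and −3.20 to −2.72 on the pregnant arrays. It had the same 3 high arrays, but cyclic replicate 1 stayed above all pregnant arrays. hsa-miR-223-3p, typical of myeloid cells, read −3.16, −0.33, −0.019 and 1.74 on cyclic replicates 1 to 4 and between −2.84 and −2.65 in pregnancy. By deviations from the group means the closest were ssc-miR-101 (0.934), mmu-miR-21a-3p (0.929), ssc-miR-574 (0.929), ssc-miR-29a (0.901) and ssc-miR-140-5p (0.890). ssc-miR-101 (−0.12 ± 0.15) and ssc-miR-574 (−0.27 ± 0.22) did not pass the test between groups, and each was lowest among the cyclic arrays on cyclic replicate 1 (−2.30 and −3.03).

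**Figure D4:**
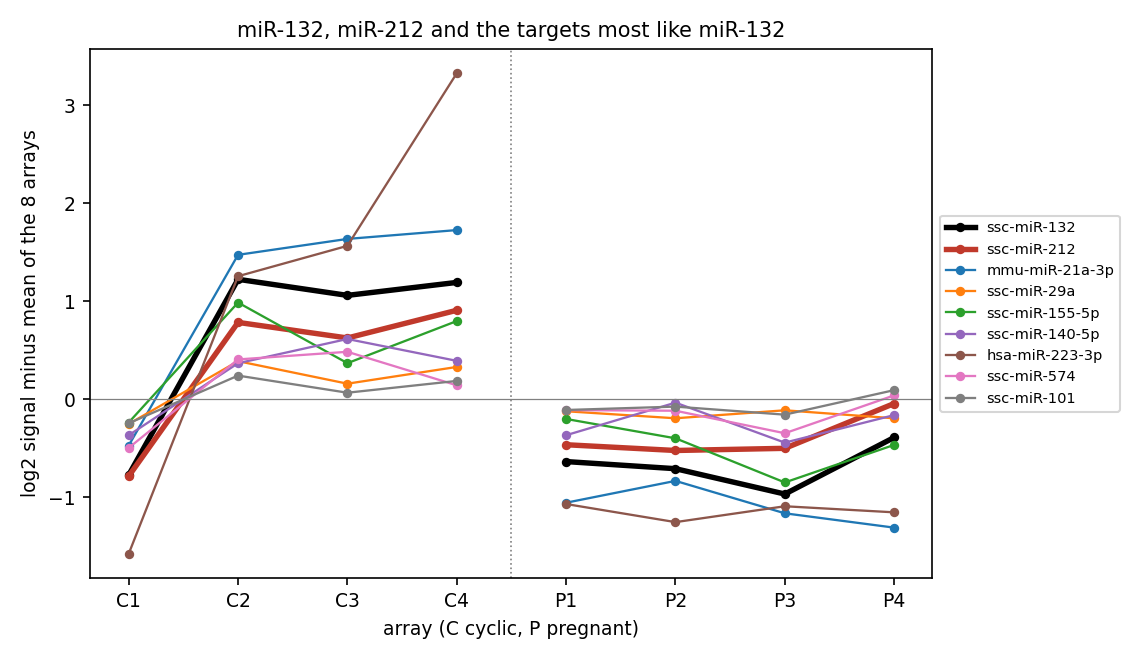
Log2 signal of each miRNA minus its mean over the 8 arrays, for ssc-miR-132, ssc-miR-212 (with the lower floor) and the 7 tested targets closest to ssc-miR-132. C marks cyclic and P pregnant arrays, and lines join arrays of a group only to lead the eye. All 9 miRNAs are low on cyclic replicate 1 relative to cyclic replicates 2 to 4.

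The other miRNAs that follow gonadotropins or cAMP in steroid-producing cells were read from fixed lists. The list of LH-induced miRNAs of mouse granulosa cells holds miR-132, miR-212 and both strands of miR-21, an inhibitor of apoptosis. Among its 3 tested targets, ssc-miR-132 and mmu-miR-21a-3p were lower in pregnancy, where 6.13% of all tested targets were lower. ssc-miR-21 did not pass and 0 were higher. The median log2 difference was −1.35, which is the value of ssc-miR-132 itself, against 0.0038 over all tested targets. ssc-miR-132 is a member of this list and of the list raised by ACTH, so its own change lends them no support. mmu-miR-21a-3p differed by −2.18 ± 0.41 (adjusted p = 0.0105), and the abundant guide strand ssc-miR-21 by −0.37 ± 0.17 (adjusted p = 0.142). Without cyclic replicate 1 all 3 were lower, where 40 tested targets (18.9%) were lower. That array was singled out on values that include those of ssc-miR-132, so this count is no support for the list.

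Adrenocorticotropic hormone (ACTH) acts on the adrenal cortex through cAMP, as LH does on the ovary. Of the miRNAs that it raises in the rat adrenal, 3 of 7 targets were tested. ssc-miR-132 passed as lower, the 2 others did not pass, and the median of the 3 was −0.99, where 6.13% of all tested targets were lower. ssc-miR-96-5p differed by −0.99 ± 0.32 (adjusted p = 0.0729) and its cluster partner ssc-miR-182 by −0.14 ± 0.24 (adjusted p = 0.758), while the targets ssc-miR-183, hsa-miR-183-3p and hsa-miR-182-3p were detected on no array. The median is the value of ssc-miR-96-5p itself. On pregnant replicates 2 to 4 ssc-miR-96-5p was at the floor of −4.85, so its difference depends on the floor. Unlike ssc-miR-132, ssc-miR-182 was highest among the cyclic arrays on cyclic replicate 1 (−2.27 against −3.19 to −3.14). The same held for ssc-miR-96-5p (−3.20 against −4.18 to −3.29). Without that array 2 of the 3 were lower, against 18.9% of all tested targets. ssc-miR-132 was again among them, so this count is no support either.

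Of the miRNAs that ACTH lowers in the rat adrenal, 3 of 5 targets were tested. ssc-miR-503, a cell cycle regulator, was higher in pregnancy (1.39 ± 0.32, adjusted p = 0.0226), where 5.19% of all tested targets were higher. In this list 0 were lower and 2 did not pass, with a median of 0.11. ssc-miR-27a differed by −0.49 ± 0.21 (adjusted p = 0.135) and ssc-miR-214 by 0.11 ± 0.20 (adjusted p = 0.767), and hsa-miR-27a-5p and hsa-miR-214-5p were detected on no array. Without cyclic replicate 1, ssc-miR-27a was lower as well (−0.69).

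**Figure D5:**
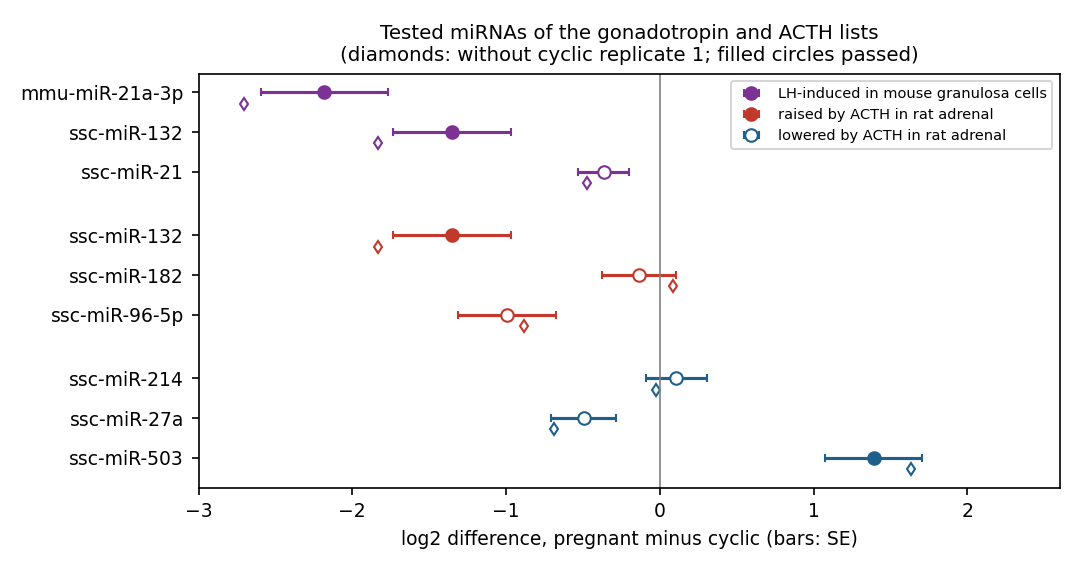
Log2 difference, pregnant minus cyclic, with its SE, of the tested miRNAs of the LH list and both ACTH lists. Filled circles passed the limma test after adjustment over all tested targets, and diamonds give the difference without cyclic replicate 1. ssc-miR-132 belongs to 2 lists and is drawn in both.

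miR-132 is also made by activated leukocytes, endothelial cells and neurons, so their markers were read on the same arrays. Of 16 leukocyte targets 8 were tested and 8 were detected on no array, ssc-miR-142-3p among the latter. ssc-miR-155-5p was lower (−0.96 ± 0.25, adjusted p = 0.0324), 0 were higher and 7 did not pass, with a median of −0.22, where 6.13% of all tested targets were lower. In the fit without cyclic replicate 1 there were 3 lower, against 18.9% of all. hsa-miR-223-3p differed by −2.29 ± 0.76 (adjusted p = 0.0791), and without cyclic replicate 1 by −3.19. The summed scaled signal of the leukocyte targets was 2.12 to 5.22 on cyclic replicates 2 to 4, 0.940 on cyclic replicate 1 and 1.02 to 1.22 on the pregnant arrays. It was thus high on the same 3 arrays as ssc-miR-132. Without hsa-miR-223-3p the sum was 1.62, 1.14 and 1.88 on cyclic replicates 2, 3 and 4, 0.8287 on cyclic replicate 1 and 0.860 to 1.06 on the pregnant arrays. ssc-miR-142-5p read −3.70, −2.12, −2.76 and −0.99 on cyclic replicates 1 to 4 and −3.16 to −3.02 in pregnancy. Its difference (−0.67 ± 0.44) did not pass, and without cyclic replicate 1 it was −1.11. The differences of bta-miR-155 (−0.34 ± 0.20) and mmu-miR-342-3p (−0.10 ± 0.20) did not pass either. Nor did those of ssc-miR-146a-5p (−0.013 ± 0.23), hsa-miR-146b-5p (0.043 ± 0.34) and ssc-miR-150 (0.014 ± 0.20). The part of leukocyte markers in the result was not tested.

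The fibroblast markers miR-199a, miR-199b and miR-214 had a summed scaled signal of 4.62 to 8.50 on cyclic replicates 2 to 4, 3.57 on cyclic replicate 1 and 3.85 to 4.32 in pregnancy, and their part was not tested either. Of their 6 targets 5 were tested and 0 passed (11.3% of all), with a median of −0.45. Without cyclic replicate 1 there were 4 lower, against 18.9% of all tested targets. ssc-miR-199a-5p, the brightest, differed by −0.51 ± 0.28 (adjusted p = 0.229).

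The summed signals of the endothelial and neuronal markers were not high on those 3 arrays alone. Of 5 endothelial targets 4 were tested and 0 passed (11.3% of all), with a median of 0.12. Without cyclic replicate 1 also 0 passed (38.2% of all). ssc-miR-126-3p, the endothelial marker, differed by 0.16 ± 0.12 (adjusted p = 0.359). Their summed scaled signal was 7.95 on cyclic replicate 1, 6.76 to 7.85 on the other cyclic arrays and 7.55 to 9.44 in pregnancy. Of 20 neuronal targets 8 were tested and 12 were detected on no array, all entries of miR-124 and miR-9 among them. hsa-miR-129-1-3p was higher (0.96 ± 0.25, adjusted p = 0.0324), where 5.19% of all tested targets were higher. It read −4.66 to −3.50 on the cyclic arrays, near the floor of −4.85. Of the same miRNA number, ssc-miR-129a-3p (−0.48 ± 0.64) and ssc-miR-129a-5p (0.20 ± 0.34) did not pass. In this list 0 were lower and 7 did not pass (median −0.027), with the bright ssc-miR-128 at −0.019 ± 0.13. Without cyclic replicate 1 there were 1 higher (19.3% of all) and 2 lower (18.9% of all). The neuronal sum was 0.979 on cyclic replicate 1, 0.794 to 1.03 on the other cyclic arrays and 0.743 to 1.28 in pregnancy.

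In the remaining lists 1 of 19 tested targets passed, against 11.3% of all tested targets. Of the 11 tested ovarian and luteal miRNAs ssc-miR-503 alone was higher (5.19% of all) and 0 were lower (median 0.35). The brightest, ssc-miR-34a, differed by 0.077 ± 0.13. The 4 smooth muscle targets (ssc-miR-143-3p −0.15 ± 0.15), the 2 tested of 4 erythroid targets (ssc-miR-451 0.10 ± 0.62) and the 2 tested of 10 epithelial targets (hsa-miR-141-3p 0.037 ± 0.19) gave 0 passed, and their medians were −0.15, −0.016 and −0.21. When cyclic replicate 1 was left out, 4 of 11 ovarian and luteal targets were higher (19.3% of all) and 1 of 2 epithelial targets was lower (18.9% of all).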

How the data were processed

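Total RNA (100 ng per sample, integrity number above 8 per the labels) was labelled with Cy3 and hybridised to a 1-colour Agilent miRNA array. The deposited scanner files hold the intensity of each spot after background subtraction and spatial detrending in Agilent Feature Extraction (10.7.3.1 per the file headers, while the submitters' processing notes name 10.7). A deposited value table by the authors holds log2 values, centred per spot to a median of 0 over the 8 arrays. Its column medians ran from −0.000302 to 0.0318, and how the authors scaled arrays to each other is unknown. Its deposited columns for cyclic replicates 2 and 4 alone hold 3 cells above 100, outside any log2 range, so they were classed as a score. Those cells were read as missing and the rest used as log2. Those values served as an alternative only.

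Control spots (715 on every array) and outlier spots (384 to 453) were dropped, spots averaged per probe, and each array divided by its 75th percentile over targets detected on all arrays. Detection of a probe required a share of 0.5 or more spots well above background. The signal was floored at 0.0346 (the 1st percentile of detected probes) before log2, and each target took its brightest probe. Group differences (pregnant minus cyclic) were fitted with limma 3.58.1 (trended eBayes) (R 4.3.3, and package data.table at version 1.17.8) and adjusted by Benjamini-Hochberg at 0.05. Exact permutation tests were run over samples. The fit was tested on simulated data, and plots were made in matplotlib 3.10.9 under Python 3.11.15. The bound for ssc-miR-212 sets the cyclic mean against, per pregnant array, the higher of the probe's own signal and the lowest signal of a detected probe. The number of arrays limits the precision. The labels call the samples biological replicates. The limma p-values rest on the spread between them, with variances moderated over the tested targets, and the permutation p-values on splits of the arrays.

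miRNAs named were both members, the 5 tested targets most like ssc-miR-132 by each of 2 measures, and all targets of the LH and ACTH lists. Of every other list those that passed and the brightest were named, with some further leukocyte, ovarian and neuronal entries. The members and lists were chosen with earlier results of these data known. Lists were matched by miRNA number, and entries of a miRNA from several species count separately. Alternatives changed background correction, scaling, filters, floor, probe and spot summaries, variance model, blocks and arrays. List counts and likeness without cyclic replicate 1 were added after seeing the data.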

Additional observations from a re-analysis of the deposited data

Results flagged for a closer look

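Among the 16 miRNAs named with a change, a list of gonadotropin or ACTH response or a pattern like ssc-miR-132, 32 sets of 4 arrays were checked for an array far from the other 3, by Dixon's gap over range at its 95% critical value. Chance alone is known to single out about 1 set in 20, but that rate does not apply here, since many of these miRNAs were picked for a change or for likeness to ssc-miR-132. In all 5 were singled out. ssc-miR-132 on cyclic replicate 1 read −1.004 against 0.83 to 0.99 on the other cyclic arrays, and mmu-miR-21a-3p on the same array read −2.36 against −0.41 to −0.16. ssc-miR-182 on that array stood out in the other direction, at −2.27 against −3.19 to −3.14. ssc-miR-212 on pregnant replicate 4 read −4.78 and ssc-miR-96-5p on pregnant replicate 1 read −3.54, in both cases with the other 3 pregnant arrays tied at the floor of −4.85, which makes the gap equal to the whole range.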

How the results depend on the processing

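The log2 difference of ssc-miR-132 was negative in all 32 alternatives and stayed past the threshold in 11 of them, and the cause of each lost call was not tested. The call was lost with quantile normalization (−1.31, adjusted p = 0.0513), without scaling (−1.39, 0.0991), with the authors' table (−1.34, 0.0654), with the total gene signal (−1.41, 0.0800), with the mean of the probes (−1.40, 0.0613), with the dimmer probe (−1.45, 0.136) and with outlier spots kept (−1.33, 0.0518). The difference remained −1.35 while the adjusted p rose to 0.0542 for targets detected on at least 2 arrays, 0.388 without a detection filter, 0.0508 with the lower and 0.0973 with the higher floor, and 0.107 with robust variance. With slide as a fixed block it was −1.81 (adjusted p = 0.0471), a difference that rests on slide 3. With slide as a random block it was −1.31 (adjusted p = 0.0511) and −1.35 when scan day entered the fit (adjusted p = 0.128). With 1 array left out it ran from −1.83 without cyclic replicate 1 to −1.17 without cyclic replicate 2. With a replicate block it was −1.35 (adjusted p = 0.0226), and 26 targets passed in place of 24. Same-numbered arrays correlated by 0.108, 0.099, −0.179 and 0.161 in their deviations from the group means. Cyclic arrays 2 and 3 correlated more with another number, and cyclic arrays 1 and 4 most with their own. Nothing in the labels ties the numbers across groups, and these values cannot decide whether the samples were paired. The difference of ssc-miR-212 was negative in its 31 alternatives and moved beyond the replicate SD with normexp (−0.12). Its dimmer probe gave no value, being at the floor on every array. The number of targets that passed ran from 1 without a detection filter to 81 without cyclic replicate 1, and was 62 with scaling over all probes, which raised the median difference of all tested targets by 0.30. ssc-miR-132 differed by −1.05 there. For ssc-miR-212, signal close to background limits what can be read from these arrays.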
